A study of Mus musculus with 12 samples.

Results

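Voltage-gated calcium channels carry the calcium current of the cardiac action potential, and the 10 genes described here encode subunits of their L-type and T-type forms. They were taken by symbol from a table of 51826 gene entries, and all 10 symbols were present. The pore is formed by an α1 subunit, encoded by Cacna1c, Cacna1d and Cacna1s for L-type channels and by Cacna1g and Cacna1h for T-type channels. Cacna2d1 and Cacna2d2 encode extracellular α2δ subunits, Cacnb2 encodes a cytosolic β subunit, and Cacng4 and Cacng6 encode members of the γ family.

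L-type current through the product of Cacna1c triggers calcium release from the sarcoplasmic reticulum and with it contraction. The channel encoded by Cacna1d opens at more negative voltages and is known from sinoatrial and atrial cells. T-type channels open near the resting potential and are known for their part in pacemaking and conduction, while α2δ and β subunits set how many channels reach the membrane and how they open.

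The libraries came from 3 CUG960 +dox mice and 3 MHCrtTA +dox controls, each giving atria and ventricles, so that 6 mice gave 12 libraries. All mice were FvB females at 10 weeks of age, with doxycycline (dox) from postnatal day 1. Controls had the genotype MHCrtTA(hemi), and CUG960 mice had the genotype TREDT960I(H)/MHCrtTA(hemi), with 960 interrupted repeats in human DMPK exons behind a tetracycline response element. Dox and the MHCrtTA transgene were therefore common to both groups, and the repeat transgene, which the αMHC promoter limits to cardiomyocytes through the transactivator, distinguished them. The tissue was whole chamber, so fewer cells of a type and less RNA per cell cannot be told apart. Levels are given as CPM, the count of a gene scaled to a common library size after TMM normalization, and libraries held 116127966 to 160676189 counts.

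The chamber labels matched their markers. Myl7, the atrial regulatory light chain, ranged from 2532 to 3318 CPM in atria and from 0.192 to 55.8 CPM in ventricles, and Myl2, its ventricular counterpart, from 8484 to 10474 CPM in ventricles and from 8.81 to 33.5 CPM in atria. Control library V334 of the atria stood apart from the other atrial libraries. Hba-a1, an erythroid hemoglobin gene, was at 1356 CPM in it and at 153 to 232 CPM in the other 5, and 4 macrophage markers summed to 493 CPM against 195 to 259 CPM. For many of the subunit genes, values without mouse V334 are therefore given as well.

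In atria, 2 of the 8 subunit genes that could be tested at their level in both groups rose in CUG960 +dox mice and none fell. These were Cacna1d and Cacna1h. Cacng4 was also called, but it passed the filter on low counts only through the CUG960 group, where it is high, and is not counted here. Cacna1g and Cacna2d2 were higher by less than the 1.5-fold limit. The other 4 genes, Cacna1c, Cacna1s, Cacna2d1 and Cacnb2, differed by at most 1.09-fold. A gene was called at a Benjamini-Hochberg adjusted P value under 0.05 in the edgeR quasi-likelihood test and a fold change of at least 1.5, with the adjustment over all genes tested in that tissue. By this rule 5.49% of all genes tested in atria were called, 3.37% as higher in CUG960 mice, and 5.62% when each library had to hold 10 counts or more of a gene. The median log2 fold change of the 8 genes was 0.30, against -0.01 for all genes.

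Cacna1d was at 17.3, 13.8 and 10.2 CPM in atria of the control mice V327, V333 and V334 and at 27.8, 28.8 and 32.4 CPM in atria of the CUG960 mice V119, V120 and V123. All CUG960 libraries lay above all control libraries. The log2 fold change was 1.1 ± 0.17 (SE), with an adjusted P value of 0.005 by edgeR. The lowest value came from library V334, and without this mouse the log2 fold change was 0.93 with an adjusted P value of 0.0041 by edgeR.

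Cacna1h was at 7.38, 7.73 and 4.28 CPM in control atria and at 10.9, 13.2 and 17.2 CPM in CUG960 atria. Again the groups did not overlap, and V334 was the lowest. The log2 fold change was 1.08 ± 0.24 (SE), with an adjusted P value of 0.021 by edgeR, and 0.86 with an adjusted P value of 0.026 without V334. The call was lost without CUG960 mouse V120 (adjusted P = 0.06 by edgeR) or V123 (adjusted P = 0.054 by edgeR), with log2 fold changes of 1.12 and 0.89.

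Cacng4 was close to the detection limit. Its counts were 4, 7 and 5 in control atria and 21, 31 and 21 in CUG960 atria, so the groups did not overlap, but only the CUG960 group reached 10 counts, and the highest of the 6 libraries was at 0.2 CPM. The gene was tested only through the group where it is high. Its fitted log2 fold change of 2.31 ± 0.38 (SE), with an adjusted P value of 0.0068 by edgeR, is therefore not read as a result. The call was lost when all 12 libraries were fitted together (adjusted P = 0.087 by edgeR). With at least 10 counts required in every library the gene was not tested, and DESeq2 gave it no adjusted P value. Its protein is better known from neurons, where it accompanies AMPA receptors.

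Cacna1g, the other T-type pore gene, was at 23.7, 27.2 and 20.7 CPM in control atria and at 37.7, 36.8 and 32.8 CPM in CUG960 atria. The groups were separate, but the 1.49-fold difference was just under the limit (log2 fold change 0.58 ± 0.10 SE, adjusted P = 0.0098 by edgeR). The gene was called with total counts alone (log2 fold change 0.62, adjusted P = 0.0086 by edgeR), without V333 (0.68, adjusted P = 0.0089) and without V123 (0.63, adjusted P = 0.015). Without V334, the lowest control, the log2 fold change was 0.48 (adjusted P = 0.023 by edgeR), and without V327, V119 or V120 it was 0.54 to 0.57 (adjusted P = 0.034 to 0.041 by edgeR). Cacna2d2 was at 110, 110 and 80.5 CPM in control atria and at 135, 135 and 148 CPM in CUG960 atria. Its 1.39-fold difference also stayed under the limit (log2 fold change 0.47 ± 0.12 SE, adjusted P = 0.032 by edgeR) and was 0.34 on the log2 scale without V334, with adjusted P values up to 0.08 by edgeR on leaving out a mouse and of 0.14 when atria and ventricles were fitted jointly. With these, 4 of the 8 genes had an adjusted P value under 0.05, against 14.6% of all genes tested in atria. The same 4 genes had groups that did not overlap, against 35.7% of all genes.

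The remaining atrial genes had overlapping groups. Cacna1c ranged from 76.7 to 88.0 CPM in controls and from 80.5 to 98.6 CPM in CUG960 mice, and the 95% interval of its log2 fold change was -0.07 to 0.33. The intervals were -0.19 to 0.21 for Cacna2d1, -0.06 to 0.23 for Cacnb2 and -0.58 to 0.40 for Cacna1s, which was at 0.770 to 1.17 CPM. For Cacna1c, Cacna2d1 and Cacnb2 a change of 1.5-fold lay outside the interval, and for Cacna1s a fall of that size was barely outside it. Cacng6 had 0 counts in all 6 atrial libraries, which allows up to 0.0172 to 0.0222 CPM by library (3 counts, counting error only).

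**Figure D1:**
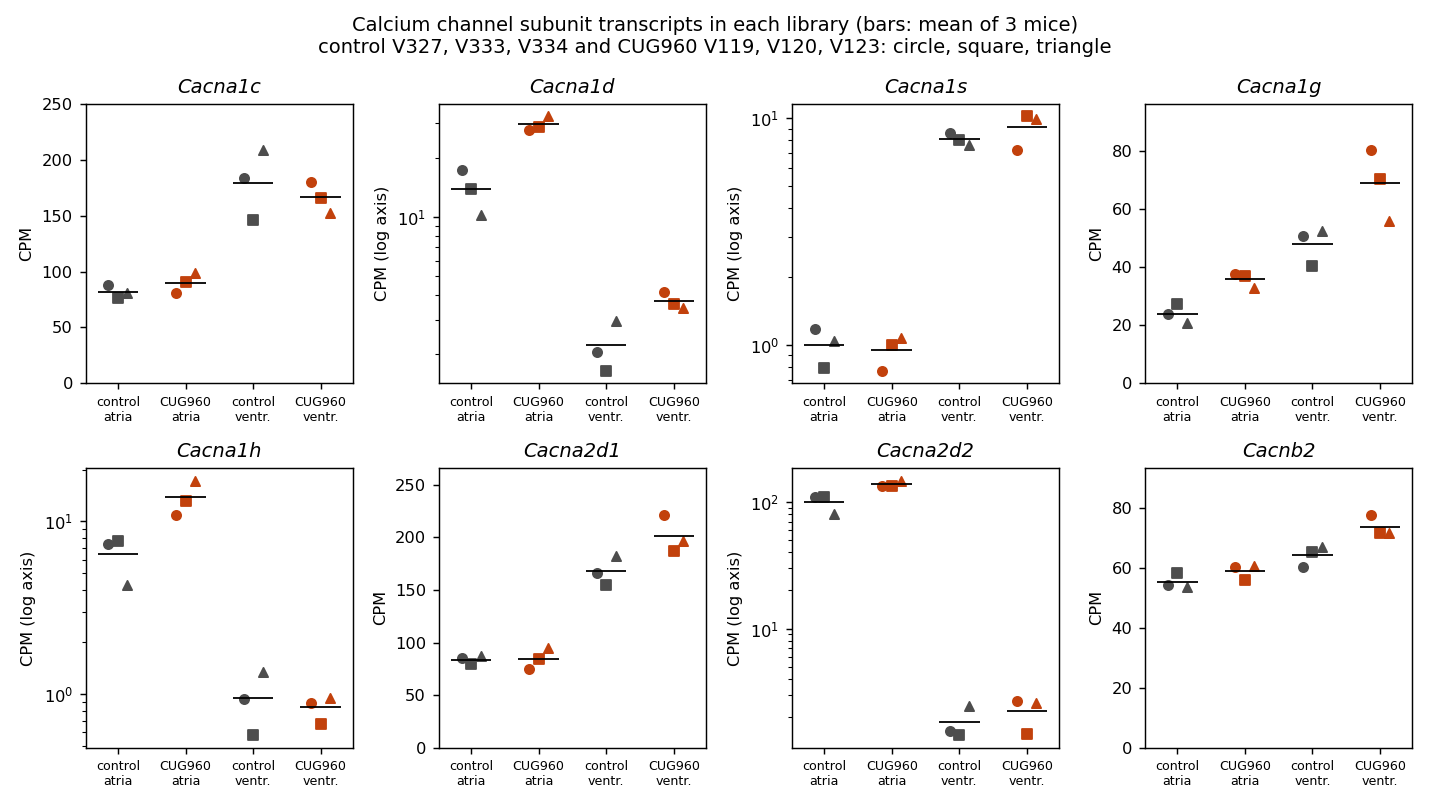
CPM (vertical axis, log axis where labelled) of 8 subunit genes in each of the 12 libraries, by genotype and chamber, with bars at the mean of 3 mice. Circles, squares and triangles are mice V327, V333 and V334 for controls (gray) and V119, V120 and V123 for CUG960 (orange). The 3 CUG960 atrial values of Cacna1d, from 27.8 to 32.4 CPM, lie above the 3 control values, and those of Cacna2d1 overlap with them.

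In ventricles none of the 8 subunit genes tested was called, against 4.75% of all genes tested there (507 of 804 higher in CUG960 mice, and 779 of 966 with total counts alone in place of TMM). By edgeR 4 of the 8 had an unadjusted P value under 0.05, against 25.7% of all genes. DESeq2 called 1 of the 8, Cacna1d, against 960 of all 16909 genes. The genotype groups did not overlap for Cacna1d, Cacna1g, Cacna2d1 and Cacnb2, that is 4 of 8, against 31.2% of all genes. The median log2 fold change of the 8 genes was 0.23, and that of all genes -0.01.

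Cacna1d was at 2.07, 1.65 and 2.97 CPM in control ventricles and at 4.14, 3.61 and 3.45 CPM in CUG960 ventricles. All CUG960 values were higher than all control values, at a small part of the atrial level. The log2 fold change of 0.74 ± 0.21 (SE) had an adjusted P value of 0.053 by edgeR. This value was near the threshold, and the gene was called by DESeq2 (adjusted P = 0.006), with all 12 libraries in a single fit (adjusted P = 0.035 by edgeR) and without V334 (log2 fold change 0.999, adjusted P = 0.013 by edgeR). Without any other of the mice it was not called, with log2 fold changes of 0.57 to 0.79 and adjusted P values of 0.088 to 0.15 by edgeR.

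Cacna1g was at 50.6, 40.5 and 52.5 CPM in control ventricles and at 80.2, 70.5 and 55.8 CPM in CUG960 ventricles. The groups did not overlap, but CUG960 mouse V123 lay close to the highest control. The log2 fold change of 0.52 ± 0.14 (SE) had an adjusted P value of 0.045 by edgeR and stayed under the 1.5-fold limit at 1.43-fold. The gene was called without V123 (log2 fold change 0.65, adjusted P = 0.021 by edgeR) and with total counts alone (0.625, adjusted P = 0.029 by edgeR). On leaving out any other mouse the log2 fold change was 0.40 to 0.59 and the adjusted P value 0.056 to 0.14 by edgeR. No other gene of the 8 had an adjusted P value under 0.05, that is 1 of 8, against 9.94% of all genes tested in ventricles.

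In ventricles Cacna2d1 and Cacnb2 had higher values in all CUG960 libraries than in all control libraries and did not pass the test. Cacna2d1 was at 166, 154 and 182 CPM in controls and at 222, 187 and 196 CPM in CUG960 mice (log2 fold change 0.26, adjusted P = 0.11 by edgeR). Cacnb2 was at 60.3, 65.5 and 66.9 CPM in controls and at 77.8, 71.5 and 71.7 CPM in CUG960 mice (log2 fold change 0.19, adjusted P = 0.14 by edgeR). Without V334, the highest control of both genes, the log2 fold changes were 0.33 for Cacna2d1 and 0.22 for Cacnb2 (adjusted P = 0.08 and 0.15 by edgeR). Cacna1c, the main L-type pore gene, ranged from 146 to 209 CPM in control and from 153 to 180 CPM in CUG960 ventricles, and the 95% interval of its log2 fold change was -0.39 to 0.16. Cacna1s ranged from 7.62 to 8.60 CPM in control and from 7.20 to 10.2 CPM in CUG960 ventricles, with overlap. The 95% interval of its log2 fold change was -0.15 to 0.48, and the estimate was 0.08 to 0.31 on leaving out a mouse.

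Genes at low ventricular level were less precisely measured. Cacna1h was at 0.935, 0.577 and 1.34 CPM in controls and at 0.886, 0.668 and 0.949 CPM in CUG960 mice, with overlapping groups and a 95% interval of the log2 fold change from -0.88 to 0.50. Cacna2d2 ranged from 1.44 to 2.68 CPM over the 6 ventricular libraries, and the interval was -0.32 to 0.92. Control mouse V334 had the highest ventricular level of both genes among controls. Without it the log2 fold changes were 0.14 for Cacna1h, against -0.19 with it, and 0.57 for Cacna2d2, against 0.30 with it (adjusted P = 0.83 and 0.25 by edgeR). Without any other mouse the log2 fold change of Cacna2d2 was 0.15 to 0.53 (adjusted P = 0.26 to 0.83 by edgeR). Cacng4 had 0 to 11 counts and Cacng6 had 3 to 10 counts per ventricular library, and neither was tested there.

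**Figure D2:**
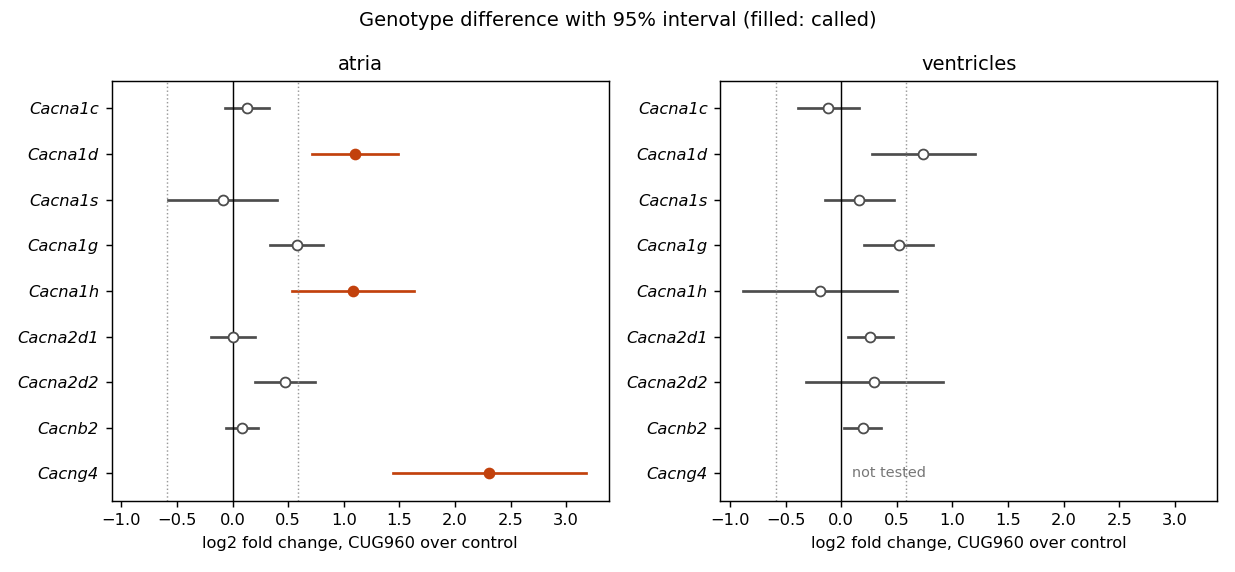
Log2 fold change of CUG960 over control (horizontal axis) with its 95% interval for 9 subunit genes in atria and ventricles, from edgeR with 3 mice per group. Filled orange symbols mark called genes, dotted lines the 1.5-fold limits. Cacna1d, Cacna1h and Cacng4 are filled in atria, and no symbol is filled in ventricles. Cacng4 passed the filter on low counts in atria only through the CUG960 group, where it is high, and is not counted as called in the text.

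Whether the genotype difference itself depended on the chamber was tested as an interaction over all 12 libraries. None of the 8 subunit genes tested, with Cacng4 left aside, was called by edgeR at an adjusted P value under 0.05, against 1.38% of all genes (127 of 253 positive, and 154 of 235 with total counts alone), with 1 of the 8, Cacna1h, at an unadjusted P value under 0.05, against 12.3% of all genes. For Cacna1h the log2 fold change in ventricles minus that in atria was -1.28 ± 0.41 (SE), with an adjusted P value of 0.19 by edgeR. DESeq2 called it (adjusted P = 0.026), and without V334 the estimate was -0.73 (adjusted P = 0.42 by edgeR). For Cacng4, tested only through its CUG960 atrial counts, the estimate was -3.36 (adjusted P = 0.35 by edgeR), and -0.58 without V334 (adjusted P = 0.96 by edgeR), whose ventricles held 11 counts against 0 and 1 in the other control ventricles. For Cacna1d, called in atria and not in ventricles, the difference was -0.36 (adjusted P = 0.68 by edgeR), with a 95% interval of -0.98 to 0.25 that leaves room for either sign.

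Most of these genes differed between the chambers of the heart. In controls 7 of the 8 subunit genes tested differed between chambers, 4 higher in ventricles (Cacna1c, Cacna1g, Cacna1s and Cacna2d1) and 3 higher in atria (Cacna1d, Cacna1h and Cacna2d2). In CUG960 mice the same 7 of 8 genes did, in the same directions, and Cacng4, which only there passed the filter, and through its atrial counts alone, is not counted. The chambers differ in much of their transcriptome, and 34.9% of all genes were called in controls (16.6% higher in ventricles, 18.3% higher in atria) and 33.6% in CUG960 mice (16.4% and 17.2%). The chambers are given as ventricles over atria below, so that negative values are atrial.

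Cacna2d2 had the largest chamber difference of the subunit genes tested. The control atria held 110, 110 and 80.5 CPM and the ventricles of the same mice 1.56, 1.44 and 2.44 CPM, so that the atrial level was 70.4, 76.6 and 33.0 times the ventricular level. In CUG960 mice it was 50.5, 92.4 and 57.7 times that level. The log2 fold changes were -5.77 ± 0.23 (SE) in controls and -5.94 ± 0.21 (SE) in CUG960 mice, with adjusted P values of 4.7e-07 and 9.34e-08 by edgeR, and the control value was -6.18 without V334. The atrial marker Myl7 was at 7.98, 4.95 and 19.3 CPM in control ventricles V327, V333 and V334 and at 0.192, 0.305 and 55.8 CPM in CUG960 ventricles V119, V120 and V123, where Cacna2d2 was at 2.68, 1.46 and 2.56 CPM. The part of atrial tissue in the ventricular level of Cacna2d2 was not tested.

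Cacna1d and Cacna1h had the same direction. Cacna1d was 8.38, 8.35 and 3.45 times higher in atria than in ventricles of control mice V327, V333 and V334 and 6.72, 7.97 and 9.39 times higher in CUG960 mice (log2 fold changes -2.62 and -2.97). Cacna1h was 7.89, 13.4 and 3.20 times higher in atria of controls and 12.3, 19.8 and 18.1 times higher in CUG960 mice (log2 fold changes -2.75 and -4.03). In both genes control mouse V334 had the smallest ratio, with the lowest atrial and the highest ventricular level of the control mice. The adjusted P values by edgeR were 4.98e-05 and 9.45e-08 for Cacna1d and 0.00017 and 7.07e-07 for Cacna1h. Without V334 the log2 fold changes in controls were -3.05 for Cacna1d and -3.31 for Cacna1h.

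Cacna1s, best known as the pore of the skeletal muscle L-type channel, was the most ventricular of the subunit genes tested. It was at 1.17, 0.792 and 1.04 CPM in control atria and at 8.60, 8.05 and 7.62 CPM in control ventricles, with log2 fold changes of 3.02 ± 0.16 (SE) in controls and 3.28 ± 0.19 (SE) in CUG960 mice (adjusted P = 2.06e-06 and 1.21e-06 by edgeR). All 6 mice had at least 7.29 times more in ventricles. A list of 12 skeletal muscle markers, led by Neb, summed to 3.10 to 10.2 CPM over the ventricles and 4.75 to 8.64 CPM over the atria. Its part in the level of Cacna1s was not tested.

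Cacna1c, Cacna1g and Cacna2d1 were higher in ventricles by similar amounts. In controls the log2 fold changes were 1.14 for Cacna1c, 1.01 for Cacna1g and 1.01 for Cacna2d1, and in CUG960 mice they were 0.90, 0.96 and 1.27. Within mice the ventricles held 1.55 to 2.58 times the atrial level of Cacna1c, 1.49 to 2.54 times that of Cacna1g and 1.94 to 2.95 times that of Cacna2d1, so each mouse had the same direction. Cacnb2 differed least, at 1.11 to 1.29 times, and was not called (log2 fold changes 0.22 and 0.34).

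The size of these ventricular differences depended on the scaling. With total counts alone, in place of TMM, the median of all genes moved to -0.49 in controls and -0.40 in CUG960 mice, and the log2 fold changes in controls were 0.56 for Cacna1g and 0.56 for Cacna2d1, no longer called, with 0.51 for Cacna1c and 0.57 for Cacna1g in CUG960 mice also no longer called, while Cacnb2 turned to -0.23 in controls and -0.05 in CUG960 mice. Of all genes called in controls, 2904 of 6098 were higher in ventricles with TMM and 1452 of 8370 with total counts, and in CUG960 mice 2879 of 5900 and 1539 of 7567. Mitochondrially encoded transcripts made up 19.6% to 20.5% of the counts in control ventricles, 15.3% to 18.4% in CUG960 ventricles and 10.9% to 12.2% in atria. The genotypes did not overlap in ventricles, where total counts alone called Cacna1d and Cacna1g, and the part of these transcripts in either shift was not tested.

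**Figure D3:**
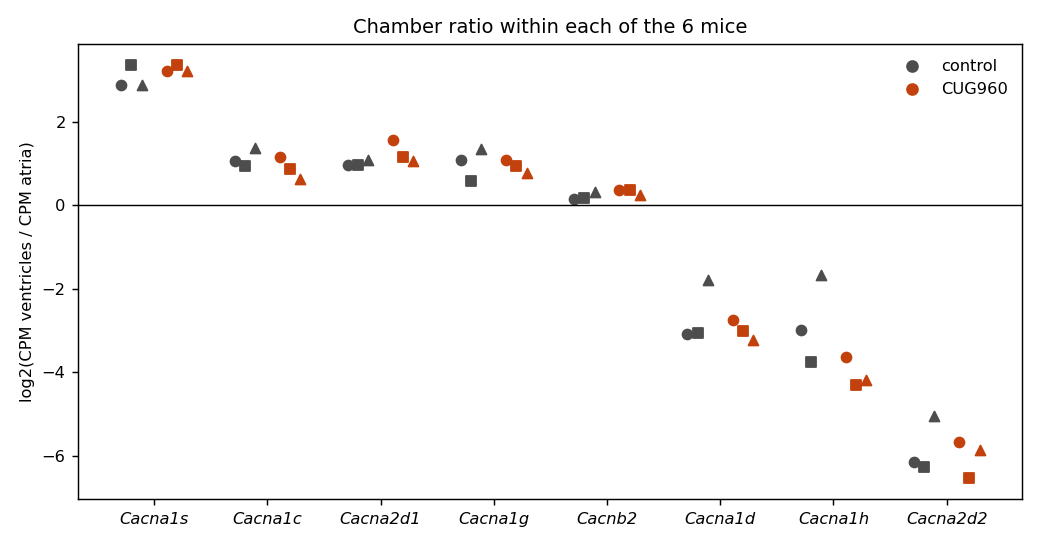
Log2 ratio of ventricular to atrial CPM (vertical axis) in each of the 6 mice for 8 subunit genes, controls in gray and CUG960 in orange, with the same symbols for the mice as in the plot of CPM by library. Values above 0 are higher in ventricles. Cacna1d, Cacna1h and Cacna2d2 lie below 0 in all 6 mice and the other 5 genes above 0, with Cacnb2 nearest to 0.

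Start site windows are shown for a pair of genes that were higher in atria, Cacna2d2 and Cacna1d, and a pair that were higher in ventricles, Cacna2d1 and Cacna1s, as the chamber comparison held the largest differences. RefSeq windows (GRCm38.p6, 250 bases before to 50 after a start) were matched by symbol for 7 of the 10 genes, with 11 windows. The 250 bases before the start are printed 5′ to 3′ on the strand of the gene. Capitals mark matches on either strand to any of 4 motifs. The TATA box was searched as TATAAA. The GC box, bound by Sp factors, was searched as GGGCGG. The site of the GATA factors of heart muscle was searched as AGATAA. The core motif of the T-box factors, which pattern the chambers, was searched as AGGTGT. The windows are chr9:107399630-107399879 (plus strand) for Cacna2d2, chr14:30491157-30491406 (minus strand) for Cacna1d, chr5:15934441-15934690 (plus strand) for Cacna2d1 and chr1:136052561-136052810 (plus strand) for Cacna1s.
Cacna2d2: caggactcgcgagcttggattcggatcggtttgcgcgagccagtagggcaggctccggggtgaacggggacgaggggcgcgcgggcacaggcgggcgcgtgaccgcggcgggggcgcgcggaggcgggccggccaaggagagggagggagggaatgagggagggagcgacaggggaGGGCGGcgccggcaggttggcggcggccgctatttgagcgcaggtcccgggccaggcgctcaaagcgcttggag
Cacna1d: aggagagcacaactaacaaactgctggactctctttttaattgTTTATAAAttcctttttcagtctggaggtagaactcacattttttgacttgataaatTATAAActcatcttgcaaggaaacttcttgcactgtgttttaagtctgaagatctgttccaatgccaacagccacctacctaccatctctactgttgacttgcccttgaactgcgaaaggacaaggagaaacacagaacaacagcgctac
Cacna2d1: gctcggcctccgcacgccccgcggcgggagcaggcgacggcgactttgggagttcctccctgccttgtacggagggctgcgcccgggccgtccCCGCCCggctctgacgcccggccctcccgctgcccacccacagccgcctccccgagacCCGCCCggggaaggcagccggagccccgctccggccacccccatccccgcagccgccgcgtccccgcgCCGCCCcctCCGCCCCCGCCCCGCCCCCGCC
Cacna1s: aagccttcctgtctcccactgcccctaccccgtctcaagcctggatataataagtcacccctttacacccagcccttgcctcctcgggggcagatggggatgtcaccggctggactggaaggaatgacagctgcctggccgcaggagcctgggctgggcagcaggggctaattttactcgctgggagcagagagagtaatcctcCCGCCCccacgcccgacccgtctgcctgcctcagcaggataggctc

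These windows differed in composition. The Cacna2d2 window was 75.7% G and C with 1 GC box, and the Cacna2d1 window 80% with 7 GC boxes, the last of which runs past the printed stretch. The Cacna1d window was 40.3% G and C with 3 matches to the TATA box, of which 2 on opposite strands overlap, and a further RefSeq start of Cacna1d had a window of 87.3% G and C with 6 GC boxes, some overlapping. The Cacna1s window was 63% G and C with 1 GC box. Of all 32851 windows 13.6% held a TATA box, 35.7% a GC box, 11.2% the GATA site and 13.7% the T-box motif, and the median was 52.7% G and C. None of the 4 windows printed held the GATA site or the T-box motif, and a match or its absence describes these letters only.

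Compared per kb of exon, the order of the genes differed between chambers. In control atria Cacna2d2 was the highest at 12.6 ± 2.13 CPM per kb (SD, n = 3), followed by Cacna2d1 at 6.75 ± 0.29, Cacnb2 at 4.19 ± 0.20, Cacna1c at 3.86 ± 0.27, Cacna1g at 2.35 ± 0.32, Cacna1d at 1.09 ± 0.28, Cacna1h at 0.662 ± 0.195 and Cacna1s at 0.153 ± 0.030. The libraries of Cacnb2 and Cacna1c overlapped and those of the other neighbors in this order did not. In CUG960 atria the order was the same, with Cacna2d2 at 17.5 ± 0.92 and Cacna1d at 2.35 ± 0.19 CPM per kb. In control ventricles Cacna2d1 led at 13.5 ± 1.13 CPM per kb, followed by Cacna1c at 8.47 ± 1.48, Cacnb2 at 4.86 ± 0.26, Cacna1g at 4.72 ± 0.64 and Cacna1s at 1.24 ± 0.07, and Cacnb2 and Cacna1g overlapped. Cacna2d2, Cacna1d and Cacna1h followed there at 0.228 ± 0.069, 0.177 ± 0.053 and 0.0972 ± 0.0389 CPM per kb, with overlap between Cacna2d2 and Cacna1d and between Cacna1d and Cacna1h. In CUG960 ventricles Cacna1g stood at 6.79 ± 1.22 CPM per kb, overlapping with both Cacna1c at 7.85 ± 0.66 and Cacnb2 at 5.57 ± 0.27, and Cacna1d at 0.296 ± 0.028 overlapped with Cacna2d2 at 0.281 ± 0.085. These levels depend on the exon length used. With the longest transcript of each gene, Cacnb2 (5030 in place of 13228 bases) was at 14.6 CPM per kb in CUG960 ventricles, above Cacna1c at 12.6, and at 11.7 CPM per kb in CUG960 atria, above Cacna2d1 at 11.4.

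The composition of each subunit class followed from these levels. Cacna1d made up 24.1%, 22.6% and 16.9% of the summed L-type pore level (CPM per kb of Cacna1c, Cacna1d and Cacna1s) in control atria and 36%, 33.9% and 34.8% in CUG960 atria. The groups did not overlap, and the difference of 13.7 percentage points had the smallest P value that 3 mice against 3 allow (exact two-sided permutation test, P = 0.1). In ventricles the share of Cacna1d was 1.77% ± 0.28 in controls and 3.10% ± 0.18 in CUG960 mice (SD, n = 3, exact permutation P = 0.1), and Cacna1s took 12.7% and 14.7% with overlapping groups, a difference of 1.93 percentage points that was 0.749 without V334. In atria the share of Cacna1s was 2.99% in controls and 2.14% in CUG960 mice, without overlap (exact permutation P = 0.1). Without V334 the difference in the atrial share of Cacna1d was 11.6 percentage points.

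The T-type genes together made up 32.8% ± 0.68 of the summed pore level of the 5 α1 genes in control ventricles and 41.7% ± 3.13 in CUG960 ventricles (SD, n = 3), without overlap (exact permutation P = 0.1). In atria they made up 37.0% ± 4.15 and 42.4% ± 1.89, with overlap (exact permutation P = 0.2), a difference of 5.33 percentage points that was 3.87 without V334. Within the T-type level, Cacna1h made up 21.6% ± 3.52 in control and 28.5% ± 6.18 in CUG960 atria, with overlap (exact permutation P = 0.2, a difference of 6.88 percentage points that was 4.9 without V334), and under 2.6% in every ventricular library. Cacna2d2 made up 64.8% ± 4.90 of the summed level of Cacna2d1 and Cacna2d2 in control atria and 72.1% ± 1.54 in CUG960 atria without overlap (exact permutation P = 0.1), and 1.64% and 1.69% in ventricles. Without V334 the atrial difference was 4.47 in place of 7.27 percentage points. Cacnb2 made up 54.0% of the summed level of the 4 β genes in control and 60.5% in CUG960 ventricles without overlap (exact permutation P = 0.1), and 48.5% and 51.3% in atria with overlap. Shares depend on the exon length used: with the longest transcript of each gene the atrial share of Cacna1d was 18.1% in controls and 30.6% in CUG960 mice. The share of Cacnb2 moved more, to 64.2% in control and 66.6% in CUG960 atria and to 69.4% and 74.8% in ventricles, and the ventricular share of Cacna1s became 8.71% in controls and 10.1% in CUG960 mice. The T-type genes together then made up 27.8% in control and 36.3% in CUG960 ventricles, and 31.7% and 37.2% in atria.

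**Figure D4:**
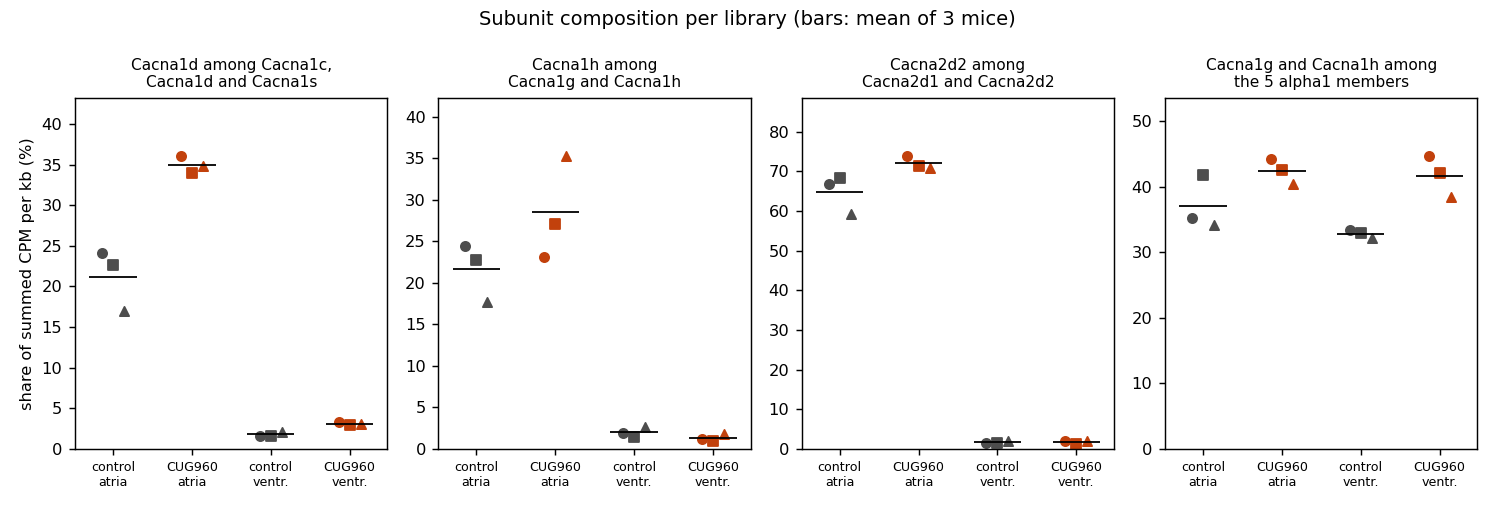
Shares of summed CPM per kb (vertical axis, %) in each library, by genotype and chamber, with bars at the mean of 3 mice and the same symbols for the mice as in the plot of CPM by library. The share of Cacna1d among L-type pore genes is 16.9% to 24.1% in control atria and 33.9% to 36% in CUG960 atria, and Cacna2d2 falls from over 59% of the level of Cacna2d1 and Cacna2d2 in atria to at most 2.05% in ventricles.

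The family has 16 other genes in the list used here, of which 9 could be tested in atria and 8, Cacng5 included, in ventricles. In atria 1 of 9 tested was called, against 5.49% of all genes. This was Cacnb4, a β subunit better known from brain, at 1.15 ± 0.15 CPM in controls and 1.79 ± 0.22 CPM in CUG960 mice (log2 fold change 0.63, adjusted P = 0.043 by edgeR), and this call was lost on leaving out any of the 6 mice (adjusted P from 0.06 to 0.14 by edgeR). In ventricles none of 7 was called by edgeR, against 4.75% of all genes, or by DESeq2, against 960 of all 16909 genes. Cacng5 was left out because only its control ventricles reached 10 counts. Of the 7, 2 were at an unadjusted P value under 0.05 by edgeR, against 25.7% of all genes. Between chambers 2 of 7 were called in controls, against 34.9% of all genes, again with Cacng5 left out, and 4 of 8 in CUG960 mice, against 33.6%. Cacna2d3, another α2δ gene, was higher in atria like Cacna2d2, at 13.2 ± 1.99 CPM in control atria and 0.497 ± 0.038 CPM in control ventricles (log2 fold change -4.72). Cacnb3 was also higher in atria, by -0.87 in controls and -1.31 in CUG960 mice on the log2 scale, and in CUG960 mice Cacnb4 was higher in atria (-0.83) and Cacna1a, a neuronal pore gene, higher in ventricles (0.63). Cacna1b, Cacna1f, Cacng1, Cacng2, Cacng3 and Cacng8 had too few counts to be tested in any comparison.

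Genes whose products bind or regulate these channels or lie next to them are given for comparison. Of 25 such genes, none of 24 was called in atria by edgeR, against 5.49% of all genes, with 11 at an unadjusted P value under 0.05, against 30.2% of all genes. DESeq2 called 1 of these 24, Cabp1, a calcium-binding protein named here after its value was seen, as lower. Over all genes in atria DESeq2 called 1042 of 17650. In ventricles 1 of 24 tested fell by edgeR, against 1.76% of all genes, and DESeq2 called 2, against 960 of all 16909 genes. The medians of the log2 fold change were -0.15 in atria and -0.18 in ventricles. Rem2, a small GTPase that inhibits L-type channels, is left out of the atrial count because only its CUG960 atria reached 10 counts. It had 6, 2 and 2 counts in control atria and 19, 24 and 13 in CUG960 atria (log2 fold change 2.57, adjusted P = 0.017 by edgeR), and the call was lost on leaving out 4 of the 6 mice in turn (adjusted P up to 0.071 by edgeR). Ryr2, the release channel that L-type current triggers, was at 866, 647 and 943 CPM in control ventricles and at 540, 471 and 535 CPM in CUG960 ventricles. It fell by 0.67 on the log2 scale (adjusted P = 0.015 by edgeR), a call held in 3 of the 6 fits that left out a mouse, with adjusted P values up to 0.064, and lost with total counts alone, where the difference was -0.57. In atria Ryr2 was at 816, 757 and 796 CPM in controls and at 454, 518 and 672 CPM in CUG960 mice, a difference of -0.53 on the log2 scale (adjusted P = 0.03 by edgeR) that stayed under the 1.5-fold limit. Without V123 it was called (-0.71, adjusted P = 0.0038 by edgeR), and without any other mouse the adjusted P value was 0.068 to 0.11 by edgeR. Ryr1, its skeletal muscle relative, was at 0.0328 to 0.45 CPM over the 12 libraries.

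Markers of other cells were read beside these results. Hcn4, the pacemaker channel of the sinoatrial node, was at 2.16, 1.65 and 0.644 CPM in control atria and at 8.14, 8.35 and 9.75 CPM in CUG960 atria, and Vsnl1 at 4.93 ± 1.62 and 13.7 ± 1.59 CPM (SD, n = 3). Both were called, but the other 4 sinoatrial markers tested were not, among them Shox2 (1.61 ± 1.29 and 1.44 ± 1.22 CPM) and Tbx3 (4.07 ± 1.28 and 2.64 ± 0.53 CPM), and Isl1 had at most 11 counts in any library. The 7 sinoatrial markers, led by Smoc2, summed to 56.5 to 59.4 CPM in control and 65.3 to 72.4 CPM in CUG960 atria. In ventricles Hcn4 was at 6.53 ± 1.84 CPM in controls and 14.2 ± 6.7 CPM in CUG960 mice (SD, n = 3). It was not called there (log2 fold change 1.12, adjusted P = 0.052 by edgeR). In controls Hcn4, Tbx3 and Smoc2 were 4.42-, 2.65- and 2.53-fold higher in ventricles than in atria by edgeR, and Shox2 and Vsnl1 were higher in atria. The part of sinoatrial tissue in the atrial rise of Cacna1d and Cacna1h was not tested.

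The 5 general cardiomyocyte markers summed to 38384 to 40124 CPM in control and 41086 to 43489 CPM in CUG960 atria with none called. This sum was led by Myh6, at 25256 to 25984 CPM in control and 29572 to 30514 CPM in CUG960 atria. The median log2 fold change of the 5 markers was -0.10. The 8 atrial markers, led by Nppa, summed to 25871 to 27624 CPM in control and 20526 to 22810 CPM in CUG960 atria with none called. Nppa alone was at 14616 to 16556 CPM in control and 11432 to 12433 CPM in CUG960 atria. Myl7 overlapped, at 2798 to 2880 and 2532 to 3318 CPM. The median log2 fold change of the 8 atrial markers was -0.15. In atria, none of the markers of fibroblasts, macrophages or adipocytes was called, 1 of 4 of endothelial cells, 1 of 8 of neurons and Schwann cells and 2 of 6 of skeletal muscle fell, 1 of 5 of ventricular cardiomyocytes fell and 1 of 6 of smooth muscle rose. In ventricles 3 of 4 adipocyte markers, 2 of 6 of smooth muscle and 2 of 7 of neurons and Schwann cells fell, 2 of 7 of skeletal muscle rose, 1 of 8 of atrial cardiomyocytes rose and 1 fell, and none of the tested markers of ventricular cardiomyocytes, cardiomyocytes in general, the sinoatrial node, fibroblasts, endothelial cells or macrophages was called. The shares over all genes were 5.49% in atria and 4.75% in ventricles. The part of these cells in the subunit levels was not tested.

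The genes whose pattern was most like that of Cacna1d, Cacna1h or Cacng4 were ranked by Pearson correlation of log2(CPM + 1) over the 12 libraries. Candidates were the genes that averaged 1 CPM or more, 13111 for Cacna1d and Cacna1h and 13112 for Cacng4. For Cacna1d these were Kazn (r = 0.989), Lrtm2 (r = 0.989) and Cds2 (r = 0.989). For Cacna1h they were Mrvi1 (r = 0.990), AC164092.1 (r = 0.989) and Prdm6 (r = 0.985). All 6 shared with the subunit gene the chamber difference that dominates these libraries, as with Mrvi1, at 92.3 CPM in control and 180 CPM in CUG960 atria and at 14.1 and 12.1 CPM in ventricles. For Cacng4 they were Ndel1 (r = 0.937), Enox1 (r = 0.921) and Galnt10 (r = 0.903), with few counts behind Cacng4. The ranking depended on the value added before the log. With 0.1 in place of 1, the genes were Cds2, Prkag2 and Txndc5 for Cacna1d, Mrvi1, Map1b and Sec23ip for Cacna1h, and Ndel1, Golga5 and Enox1 for Cacng4.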

How the data were processed

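The submitters' processing notes name GRCm38 (mm10), RSEM 1.3.1 and DESeq2, and the authors deposited a table of expected counts per gene from RSEM, 1 column per library, with poly(A) RNA and no scaling for library size. The values were rounded to whole numbers before use. After TMM scaling and the filter on low counts of filterByExpr, groups were compared on these counts by the quasi-likelihood test of edgeR 4.0.16 in R 4.3.3, with Benjamini-Hochberg adjustment over all genes tested. CPM per kb used the union of exons of GENCODE M21, which may differ from the annotation the authors counted on. Exons shared with genes on the opposite strand made up at most 20% of a subunit gene (Cacna1s), and no gene so overlapped had over 72 counts in a library.

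Each library was a different chamber of 1 of 6 mice, so each group held 3 mice, and depth was 116127966 to 160676189 counts. With group means removed, the correlation across genes between atria and ventricles was r from 0.0506 to 0.355 within a mouse and from -0.42 to 0.169 between mice of the same genotype. As deviations from the mean cancel within a group of 3 mice, positive values within mice pull those between mice down. The contrast of these ranges is therefore not a test of pairing. Chambers come from the same animals, and the mouse therefore served as a block in a further fit of the chamber comparisons and of the interaction.

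The subunit genes, the lists and the tests were chosen with earlier results of these data known. Named genes were all 10 subunit genes, other family and partner genes called by genotype, family genes called between chambers at a mean of at least 1 CPM, those not tested, and Ryr1 and Ryr2. Hcn4, Vsnl1, Shox2, Tbx3, Isl1, Hba-a1 and the library V334 were named after their values were seen. Genes with 10 counts or more in all libraries of 1 group and in none of the other (Cacng4, Rem2 and Cacng5) were left out of the counts of called genes where stated, a choice also made after the values were seen.

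Alternatives were DESeq2 1.42.0, RLE size factors, no filter, a minimum of 10 counts per library, a joint fit of the 12 libraries, other fold limits, and leaving out each mouse, with total counts alone added after the data were seen. Steps were tested on simulated data. Shares were compared with scipy 1.17.1 and figures drawn with matplotlib 3.10.9.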

Additional observations from a re-analysis of the deposited data

How the results depend on the processing

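The number of subunit genes called in atria was 2 as reported, without Cacng4, which passed the filter only through its CUG960 counts. With Cacng4 included, the number was 3 in the main fit and 5 with no fold change limit. It was 1, Cacng4 alone, with a limit of 1.5 on the log2 fold change. It was 4 with total counts alone, where Cacna1g was added, and 2 without Cacng4 in 3 settings: with all 12 libraries in a single fit, with at least 10 counts in every library, where Cacng4 was not tested, and with DESeq2, which gave Cacng4 no adjusted P value. On leaving out a mouse it was 2 to 4, with Cacna1g added without V333 or V123 and Cacna1h lost without V120 or V123. In ventricles it was 1 with no fold change limit (Cacna1g), 1 with DESeq2, with no filter on low counts, with at least 10 counts in every library or with all 12 libraries in a single fit (Cacna1d each time), 2 with total counts alone (Cacna1d and Cacna1g), and 0 to 1 on leaving out a mouse (Cacna1d without V334 and Cacna1g without V123). DESeq2 called 1 gene (Cacna1h) in the interaction. With a limit of 1.5 on the log2 fold change the chamber comparison called 4 genes in controls and 5 in CUG960 mice, the same 4 and Cacng4, which passed the filter only through its atrial counts. The mouse as a replicate block changed no call of a subunit gene: it called 7 in controls, 8 in CUG960 mice with Cacng4 included, and 0 in the interaction.

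Direction changed only for differences that were not called. With total counts alone Cacnb2 turned to -0.233 in controls and -0.0542 in CUG960 mice between chambers, and Cacna1g to 0.00984 in the interaction. On leaving out a mouse, log2 fold changes ranged from -0.233 to 0.0409 for Cacna1s and from -0.0838 to 0.0872 for Cacna2d1 in atria, from -0.24 to 0.00809 for Cacna1c, from -0.447 to 0.136 for Cacna1h and from -0.0543 to 0.533 for Cacnb4 in ventricles, and from -0.612 to 0.0738 for Cacna1d, from -0.26 to 0.107 for Cacna1g and from -0.383 to 0.234 for Cacna2d2 in the interaction. The causes were not tested.

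Over all genes, counts of calls were 969 in atria (2573 with no fold change limit, 216 with the limit of 1.5 on the log2 fold change), 804 in ventricles (1680 and 199), 253 for the interaction (660 with DESeq2, 74 to 131 on leaving out a mouse), 6098 between chambers in controls (9726 and 2233) and 5900 in CUG960 mice (9517 and 2200). Depth limits what can be said of Cacng4 and Cacng6, which stayed at or under 31 counts in every library.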
